A study of Mus musculus with 466 samples.

Results

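Transcripts of the cytosolic ribosomal proteins were followed through 60 days of diet-induced weight loss in 6 tissues of obese mice. A gene was a member if its symbol was Rpl or Rps followed directly by a number, or was Rplp0, Rplp1, Rplp2 or Rpsa, leaving out pseudogene names and the Rps6k kinases. This rule gave 34 of the 16643 gene symbols of the array annotation. They were 15 proteins of the large subunit, 12 of the small subunit, 6 paralogs (Rpl22l1, Rpl36al, Rpl39l, Rpl3l, Rpl7l1 and Rps27l) and Rps19bp1, which binds the protein Rps19 and is no subunit. Rplp0, Rplp1, Rplp2, Rpl11 and Rps6 were not analysed here. The rule used names alone.

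Total RNA of male C57BL/6J mice was hybridised to Affymetrix arrays, and 466 arrays from 80 mice were used. The restricted mice had been under caloric restriction for 1, 3, 7, 14, 21, 42 or 60 days, and the day 0 mice, obese and not yet restricted, were the baseline. The labels name liver (80 arrays), mesenteric (79), perirenal (80), perigonadal (75) and subcutaneous (78) adipose tissue and hypothalamus (74). For liver the days 0, 1, 3, 7, 14, 21, 42 and 60 had 12, 5, 11, 12, 10, 12, 12 and 6 mice, and elsewhere up to 2 fewer. All tissues came from the same mice. Each animal ID but 1 begins with J or N, day 1 holds J mice alone, day 60 holds N mice alone, and the exception is a day 3 mouse. No mice left unrestricted were sampled after day 0, so age is part of every contrast.

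Values are linear intensities as deposited, and changes are log2 differences from day 0 ± the standard error of a limma fit with day and letter as terms. A gene was called when its p-value, adjusted over all genes tested in the tissue, was under 0.05. Genes were tested when their brightest probe set exceeded percentile 25 of the probe sets in that tissue, which left 32 members in liver, 32, 33, 33 and 31 in labelled mesenteric, perirenal, perigonadal and subcutaneous fat, and 31 in hypothalamus. Rpl5 was under this limit in all 6 tissues, Rpsa in liver and in labelled subcutaneous and mesenteric fat, Rpl3l in hypothalamus and labelled subcutaneous fat, and Rpl39l in hypothalamus. Mean intensity over an array lay between 0.962 and 0.999, and 9 arrays correlated less well with the others of their tissue, among them 5 of labelled mesenteric fat. Tissue markers stood in their places: mean log2 intensity of hepatocyte markers had a day 42 median of 4.65 in liver, adipocyte markers from 2.92 to 3.70 in the 4 fat depots, and hypothalamic markers 1.40 in hypothalamus. Skeletal muscle markers ranged from -0.21 to 3.16 over all days in labelled perigonadal fat, and epididymis and testis markers reached 1.53 in labelled mesenteric fat, so the depots are given by their labels only. In bulk tissue, fewer cells of a type and less RNA per cell cannot be told apart.

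A ribosome joins a small subunit, which decodes the messenger RNA, to a large subunit, which forms the peptide bond. Each subunit is a ribosomal RNA scaffold that carries many small basic proteins, and these proteins are made in equal numbers. Their messengers are short and abundant, and in mammals most of them open with a run of pyrimidines, the terminal oligopyrimidine or TOP tract, through which mTORC1 and the protein Larp1 control their translation. Nutrient supply acts on ribosome production in liver and fat mainly through this pathway and through synthesis of ribosomal RNA. Transcript arrays see the messenger level and not the translation of it.

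The sequence at the annotated start of a gene shows whether a messenger that begins there would open with such a tract. The windows below hold 40 bases before and 25 bases from the annotated start of 7 members that the results turn on, taken from RefSeq for GRCm38.p6 and written 5′ to 3′ on the gene's strand. Capitals mark a C followed by at least 4 C or T that begins within 5 bases of the annotated start. Where a gene had several annotated starts, the first is shown.
Rps27: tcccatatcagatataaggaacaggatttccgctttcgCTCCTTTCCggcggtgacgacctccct
Rps27l: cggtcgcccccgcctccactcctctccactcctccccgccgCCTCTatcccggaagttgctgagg
Rpl36a: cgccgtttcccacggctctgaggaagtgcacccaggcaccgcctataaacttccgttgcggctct
Rpl36al: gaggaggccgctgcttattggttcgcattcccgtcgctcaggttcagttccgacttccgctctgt
Rps21: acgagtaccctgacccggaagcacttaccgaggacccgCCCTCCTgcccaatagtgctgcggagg
Rpl13a: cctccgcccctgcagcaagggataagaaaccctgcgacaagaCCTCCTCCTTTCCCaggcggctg
Rps15: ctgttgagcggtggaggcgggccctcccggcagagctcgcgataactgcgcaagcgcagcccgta
They lie at chr3:90213624-90213688 on the minus strand for Rps27, chr9:66946046-66946110 on the plus strand for Rps27l, chrX:134585614-134585678 on the plus strand for Rpl36a, chr12:69184043-69184107 on the minus strand for Rpl36al, chr2:180257339-180257403 on the plus strand for Rps21, chr7:45128721-45128785 on the minus strand for Rpl13a and chr10:80292391-80292455 on the plus strand for Rps15. A promoter entry was found for 29 of the 34 members and 12 of these 29 (41.38%) held a tract by this definition, against 5718 of 27025 annotated gene symbols (21.16%). Among subunit proteins it was 10 of 22, and among paralogs 2 of 6. In the 300 bases around the start, CCGGAAG on either strand was found for 8 of 29 members against 9.928% of all symbols, GGGCGG for 17 of 29 against 38.2%, and TATAAA for 3 of 29 against 15.67%. A match describes the letters of a window and not a used start or site. A window without a match does not show that the messenger lacks a tract, because used starts were not measured here.

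After 42 days of restriction, ribosomal protein transcripts were called higher in liver and in 3 of the 4 fat depots, by small amounts, and 0 members were called lower in any tissue. In liver 19 of 32 members rose, by 0.037 to 0.22 on the log2 scale, where 8.08% of all genes tested were called higher and 13.2% lower. In labelled perigonadal fat 13 of 33 rose, by 0.079 to 0.14, where 13.2% of all genes were called higher and 13.6% lower. In labelled mesenteric fat 9 of 32 rose (15% of all genes higher, 17.2% lower) and in labelled perirenal fat 8 of 33 (12.6% higher, 9.39% lower). In labelled subcutaneous fat 0 of 31 were called, with 5 at an unadjusted p under 0.05, where 4.03% of all genes were called in either direction by limma. In hypothalamus limma called 0 of 31, with 2 at an unadjusted p under 0.05, and 0% of all genes.

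**Figure D1:**
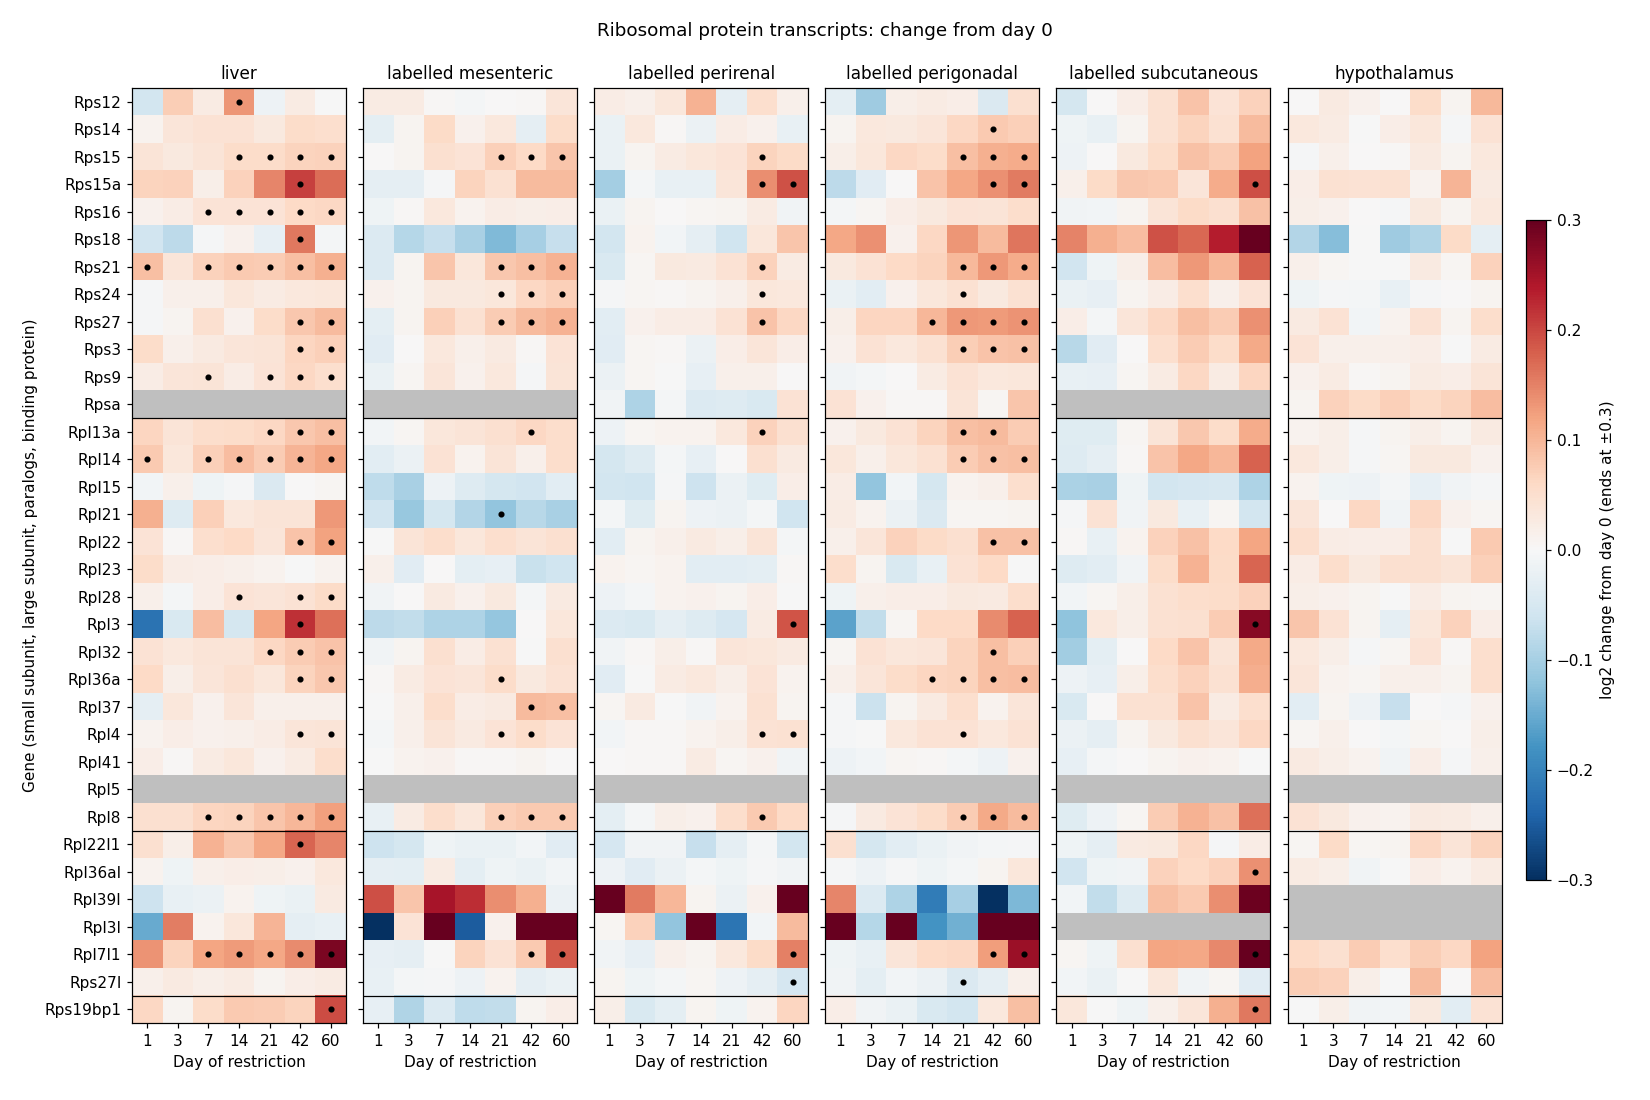
Log2 change from day 0 of each member (down the page, small subunit, large subunit, paralogs and binding protein between lines) at each day of restriction (across) in the 6 tissues, with dots on called changes and grey for members not tested. Colours end at 0.3 in either direction. Liver has dots at day 1 and from day 7 on, most of them at days 42 and 60. Dots gather at days 21 to 60 in the labelled mesenteric and perigonadal depots and at days 42 and 60 in the labelled perirenal depot. The labelled subcutaneous depot has dots at day 60 alone, and hypothalamus has none.

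The median change over the members at day 42 was 0.063 in liver, against -0.012 for all genes tested. It was 0.059 in labelled perigonadal fat against 0.005 for all genes, 0.055 against 0.006 in labelled subcutaneous fat, 0.034 against 0.014 in labelled perirenal fat, 0.012 against 0.007 in labelled mesenteric fat and 0.008 against 0.000 in hypothalamus. In liver 29 of 32 members had a positive estimate, where 43.3% of all genes did. Members were measured more tightly than the average gene, with a median standard error in liver of 0.021 against 0.040 over all genes, so a change of a given size was called more readily for a member.

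In liver the rise built up over the time course. At day 1 limma called 2 members higher (1.83% of all genes). At day 3 it called 0 of 32 (1.18% of all genes higher, 4.09% in either direction). At that day 5 members had an unadjusted p under 0.05, against 2291 of all 13536 genes, so neither count is a result about the members. Day 7 had 6 (2.73%), day 14 had 8 (4.23%), day 21 had 9 (3.47%), day 42 had 19 and day 60 had 16 (9.6%). For days 1, 3, 7, 14, 21, 42 and 60 the median over the members was 0.021, 0.021, 0.037, 0.039, 0.039, 0.063 and 0.066. The 2 calls of day 1, Rpl14 and Rps21, rest on 5 J mice, and leaving out 1 of these mice left between 0 and 2 calls.

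In labelled perigonadal fat day 14 had 2 members called higher (6.71% of all genes), day 21 had 10 (9.29%), day 42 had 13 and day 60 had 10 (10.4%), and the median over the members at these days was 0.033, 0.047, 0.059 and 0.072. Without mouse N3, whose array stood apart from the others at day 21, 6 members were called at that day instead of 11 in both directions. In labelled mesenteric fat 7 members were called higher at day 21 (8.53%), 9 at day 42 and 7 at day 60 (11.5%). In labelled perirenal fat calls began at day 42, and 4 were higher at day 60 (11.5%). In labelled subcutaneous fat the only calls were 5 higher at day 60 (5.42%), where the median was 0.113. That median was 0.076 without the letter term and 0.020 with the scores of other cell types as covariates. Before these days limma called 0 members in each depot, with at most 10 at an unadjusted p under 0.05 (labelled mesenteric fat, day 7). The largest shares of all genes called before these days, in either direction, were 9.55% in labelled perigonadal fat (day 7) and 4.36% in labelled mesenteric fat (day 14). In labelled perirenal fat the largest was 3.36% (day 21). In labelled subcutaneous fat the share was 0.156% at day 21 and 4.03% at day 42.

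Over all days together, the moderated F test called 20 of 32 members in liver (28.5% of all genes), 15 of 33 in labelled perigonadal fat (36.1%), 10 of 32 in labelled mesenteric fat (38.2%), 7 of 33 in labelled perirenal fat (24.9%), 1 of 31 in labelled subcutaneous fat (5.79%) and 0 of 31 in hypothalamus (0.0152%). The shares in labelled mesenteric, perirenal and subcutaneous fat were near or below those of all genes. Against day 3 instead of day 0, day 42 was higher for 8 members in liver (5.95% of all genes), 9 in labelled mesenteric fat (9.89%), 7 in labelled perirenal fat (11.6%) and 8 in labelled perigonadal fat (10.8%). Between day 60 and day 42 limma called 0 members in any tissue, with 1 to 6 at an unadjusted p under 0.05. Of all genes tested it called at most 1 in any tissue, so this count is not a result about the members.

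**Figure D2:**
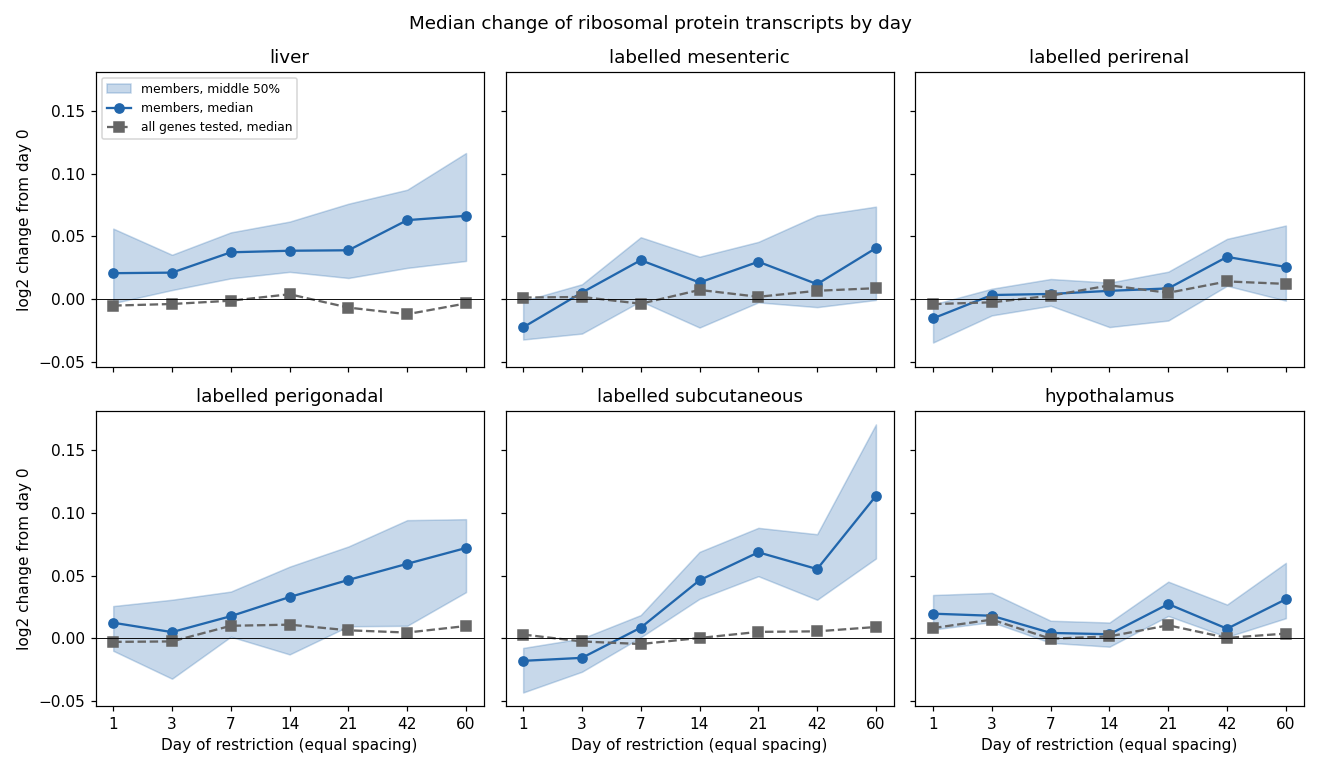
Median log2 change from day 0 over the members tested (blue circles, band for the interquartile range of the members) and over all genes tested (grey squares) at each day of restriction, 1 panel per tissue. The members' median climbed to 0.066 in liver, 0.072 in the labelled perigonadal depot and 0.113 in the labelled subcutaneous depot at day 60, and stayed at or below 0.041 in the other 3 tissues. The day 60 value was 0.020 in the labelled subcutaneous depot with marker scores as covariates, and 0.040 in the labelled perigonadal depot in N mice alone.

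Among the proteins of the large subunit, Rpl8 and Rpl13a were called higher at day 42 in liver and in labelled mesenteric, perirenal and perigonadal fat. Rpl8 lies beside the peptidyl transferase centre. Its liver intensity had a lowest, median and highest value of 11.1, 11.4 and 12.7 in 12 mice at day 42, against 10.5, 10.9 and 11.4 in 12 mice at day 0, a change of 0.099 ± 0.018 (limma, adjusted p = 2.66e-05). All 12 day 42 mice lay above the day 0 mean of their letter, while the 2 ranges overlapped between 11.1 and 11.4. For days 0, 1, 3, 7, 14, 21, 42 and 60 the liver median of Rpl8 was 10.9, 11.2, 11.1, 11.4, 11.4, 11.6, 11.4 and 11.9. Rpl8 rose by 0.11 ± 0.029 in labelled perigonadal fat, and by 0.079 and 0.078 in labelled mesenteric and perirenal fat.

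Rpl13a, which in human monocytes also serves in a complex that silences inflammatory messengers, had intensities of 12.1, 12.9 and 13.6 in 10 labelled perigonadal samples at day 42, against 11.60, 11.89 and 12.99 in 11 samples at day 0. The ranges overlapped, and all 10 mice lay above their letter's day 0 mean. Its changes were 0.094 ± 0.025 in labelled perigonadal fat, 0.081 in liver, 0.069 in labelled perirenal fat and 0.063 in labelled mesenteric fat. Rpl8 and Rpl13a each have 2 probe sets, and with the mean of both the calls in labelled mesenteric and perirenal fat ended for both genes (Rpl8 adjusted p = 0.18 and 0.16, Rpl13a adjusted p = 0.77 and 0.22).

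Rpl14 was the liver member with the smallest adjusted p at day 42. Its liver intensities were 6.26, 6.47 and 7.12 at day 42, against 5.74, 6.09 and 6.36 at day 0, a change of 0.10 ± 0.017 (limma, adjusted p = 4.07e-06), and the 2 ranges overlapped only between 6.26 and 6.36. Rpl4, which lines the tunnel through which the new peptide leaves, rose in liver by 0.037 ± 0.010, in labelled mesenteric fat by 0.055 and in labelled perirenal fat by 0.044. Rpl22, Rpl32 and Rpl36a rose in liver and in labelled perigonadal fat, by 0.068 to 0.090, and Rpl28 in liver by 0.043. With the mean of its 2 probe sets the liver estimate of Rpl22 turned to -0.027 (adjusted p = 0.35). Rpl37 was called in labelled mesenteric fat, with a change of 0.096. Rpl15, Rpl21, Rpl23 and Rpl41 were called in no tissue at day 42, with estimates from -0.084 (Rpl21, labelled mesenteric fat) to 0.059 (Rpl23, labelled perigonadal and subcutaneous fat).

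Among the proteins of the small subunit, Rps15, Rps21 and Rps27 were called in the same 4 tissues at day 42. Rps15 sits in the head of the subunit close to the decoding site. Its intensities in labelled perigonadal fat were 14.2, 14.5 and 15.4 in 10 mice at day 42, against 13.3, 13.5 and 14.5 in 11 mice at day 0, a change of 0.11 ± 0.023 (limma, adjusted p = 0.00026). The lowest day 42 value lay above the day 0 median, and all 10 mice lay above the day 0 mean of their letter. In liver Rps15 had 16.2, 16.8 and 17.7 at day 42, against 15.5, 16.1 and 16.9 at day 0, a change of 0.066 ± 0.014.

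Rps21, which takes part in maturation of the small subunit, had intensities of 9.80, 10.4 and 11.4 in labelled perigonadal fat at day 42, against 9.0002, 9.51 and 10.1 at day 0, a change of 0.13 ± 0.030. It rose by 0.090 in liver, 0.090 in labelled mesenteric fat and 0.070 in labelled perirenal fat, where the call ended under median centring (0.059, adjusted p = 0.083). Rps3 and Rps14 hold the path of the messenger through the subunit. Rps3 rose in liver by 0.065 ± 0.015 and in labelled perigonadal fat by 0.086, and Rps14 in labelled perigonadal fat by 0.079. Rps24, one of the genes mutated in the human disease Diamond-Blackfan anaemia, rose in labelled mesenteric fat by 0.061 ± 0.011 and in labelled perirenal fat by 0.034. Rps9 and Rps16 were called in liver alone, at 0.061 and 0.059.

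Of the 33 members tested in at least 1 tissue, 5 were called at day 42 in 4 tissues, 3 in 3 (Rpl7l1, Rpl4 and Rps15a), 6 in 2, 8 in 1 and 11 in 0. The 5 genes called in 4 tissues had positive estimates in labelled subcutaneous fat and hypothalamus too, where they were not called. The tissues came from the same animals, so these counts are not independent of each other. How many of all genes were called in several tissues is not given. Calls in several tissues are therefore not shown to be particular to the members.

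Of the 4 largest liver changes at day 42, 3 came from dim probe sets, and Rpl22l1, at percentile 94.8 of all liver probe sets, is given below with the paralogs. Rpl3, a protein near the peptidyl transferase centre, had liver intensities of 0.104, 0.113 and 0.136 at day 42, against 0.090, 0.099 and 0.121 at day 0, a change of 0.22 ± 0.071. In J mice alone the change of Rpl3 was 0.12 (adjusted p = 0.53). Rps15a changed by 0.21 ± 0.051 and Rps18 by 0.16 ± 0.055 in liver. The call of Rps15a in labelled perirenal fat ended without the array of mouse J4, which stood apart (0.11, adjusted p = 0.080). The probe sets of Rpl3, Rps15a and Rps18 stood at percentiles 46.3, 35.4 and 51.4 of all liver probe sets, whereas Rpl8, Rpl14 and Rps27 stood at 98.5, 96.4 and 98.7. How well a dim probe set reports its messenger was not tested. Rps18 had opposite signs in the depots, -0.098 in labelled mesenteric fat and 0.24 in labelled subcutaneous fat, neither called.

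Markers of other cells moved beside the liver result. Of the 6 listed erythrocyte markers 2 were tested, Alas2 and Slc4a1, and both fell at day 42, with a median change of -0.32. Their mean log2 intensity was -1.76, -1.18 and -0.99 (lowest, median, highest) at day 42, against -1.04, -0.95 and -0.80 at day 0. For use as a covariate each marker was scaled over the arrays before averaging. With the erythrocyte score as a covariate 7 liver members were called at day 42 in place of 19, with a median of 0.051. With the erythrocyte and muscle scores together 5 were called, with a median of 0.045. The share of all genes called under these covariates is not given. The drop in count is therefore not shown to be particular to the members. Under both covariates Rpl8 and Rps21 were still called (0.068 and 0.071), while Rps27 (0.055, adjusted p = 0.31), Rpl13a (0.066, adjusted p = 0.066) and Rps15 (0.049, adjusted p = 0.052) were not. The calls of Rpl3 (0.21, adjusted p = 0.14), Rps15a (0.12, adjusted p = 0.24), Rps18 (0.12, adjusted p = 0.34), Rpl22 (0.078, adjusted p = 0.083), Rpl22l1 (0.12, adjusted p = 0.16) and Rpl36a (0.047, adjusted p = 0.19) ended as well. These 6 and Rps27 also lost the call with the erythrocyte score alone. Of the proliferation markers 8 of 10 tested fell, with a median of -0.29. Of the adipocyte markers 4 of 8 tested fell, with a median of -0.16, and their score had a median of -1.52 at day 42, against -1.14 at day 0, with r = -0.45 and rho = -0.44 to the mean log2 of the subunit members. The part of proliferation and adipocyte markers in the result was not tested. Across the 80 liver arrays the mean log2 of the subunit members had r = -0.55 and rho = -0.52 with the erythrocyte score and r = -0.66 and rho = -0.54 with the proliferation score, and r = -0.45 and r = -0.60 without the 2 most extreme arrays. Once day and letter were removed r was -0.26 and -0.45.

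Of the 19 members called in liver, 19 had the same sign in each letter fitted alone, 12 were called in J mice and 7 in N mice. The 19 were called with both letters pooled, so a shared sign was favoured in advance and is no replication. The shares of all genes called in each letter alone are not given. In labelled perigonadal fat 10 of the 13 calls were also made in J mice alone, and 0 of 13 in N mice alone, with medians over all members of 0.079 and 0.039. The test of the difference between the letters' day 42 changes called 0 members in any tissue by limma, with at most 3 at an unadjusted p under 0.05. It called 0 of all genes tested in each tissue too, so this count is not a result about the members.

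In 3 of the labelled depots, too, other transcripts moved with the members. All 12 proliferation markers tested fell at day 42 in labelled mesenteric, perirenal and perigonadal fat, with medians of -0.67, -0.56 and -0.82. Of 11 T cell markers tested in labelled perigonadal fat 1 was called higher and the median was 0.39. All 14 muscle markers had positive estimates there, with a median of 1.11 and 0 called, and their score had a median of 2.45 at day 42, against 0.006 at day 0. Of 13 macrophage markers in labelled mesenteric fat 6 were called lower and 0 had a positive estimate, with a median of -0.10. With the scores of muscle, erythrocyte, B cell, pancreas and epididymis and testis markers as covariates, the members called at day 42 numbered 13 in labelled perigonadal, 11 in labelled mesenteric and 8 in labelled perirenal fat. The medians over the members were then 0.032, 0.007 and 0.015, in place of 0.059, 0.012 and 0.034. Under these covariates 2 of the 11 labelled mesenteric calls were lower, Rpl36al among them (-0.039). Rpl21, a large subunit protein, fell in labelled mesenteric fat at day 21 by 0.12 on the log2 scale (8.01% of all genes lower). Its intensities were 0.142, 0.157 and 0.186 at day 21, against 0.155, 0.172 and 0.192 at day 0. Its probe set was dim there, at percentile 44.2 of all probe sets.

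In labelled subcutaneous fat the members had wide ranges within a day. Rps27 intensities there were 14.8, 15.6 and 18.0 in 11 mice at day 42, against 13.4, 14.6 and 17.6 in 12 mice at day 0, and the change of 0.077 ± 0.055 was not called. The spread ran with lymphocyte markers, with r = 0.93 for the T cell and 0.90 for the B cell score over 78 arrays. It also ran with other lists, with r = -0.74 for mesothelium, -0.71 for adipocyte, -0.62 for brown fat and 0.56 for macrophage markers. The 30 arrays with a T cell score (mean log2 intensity of 11 tested markers) above 0 had a mean log2 of the subunit members from 2.404 to 2.59, and the 48 arrays with a score below 0 had 2.23 to 2.399, so the 2 sets did not overlap. Within the 30 arrays r was 0.91 and rho 0.92, and within the 48 arrays r was 0.33 and rho 0.33. From day 0 to day 60 the arrays with a score above 0 numbered, day by day, 4 of 12, 2 of 5, 2 of 11, 4 of 12, 4 of 9, 6 of 12, 5 of 11 and 3 of 6. All 11 T cell markers had positive estimates at day 42 and 0 were called.

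**Figure D3:**
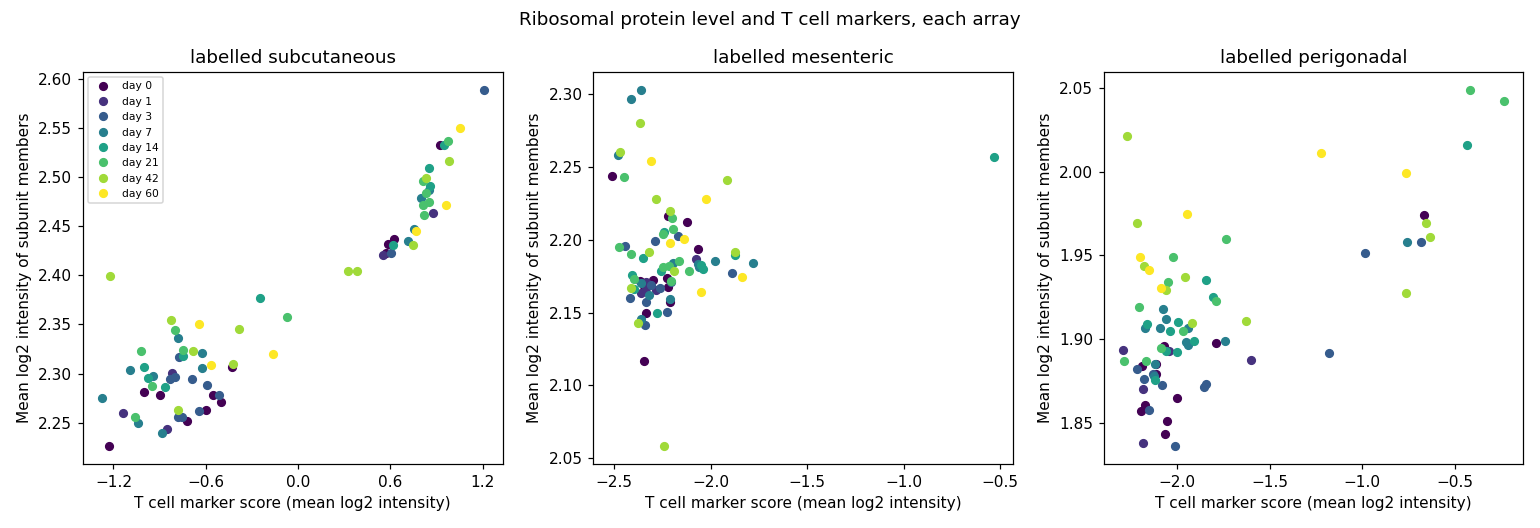
Mean log2 intensity of the subunit members (vertical) against the mean log2 intensity of T cell markers (horizontal), 1 point per array, coloured by day, in 3 labelled depots. Labelled subcutaneous arrays form a low set of 48 and a high set of 30, labelled perigonadal arrays trend upwards with few at a high score, and labelled mesenteric arrays show no such trend.

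With the other marker scores as covariates, a set that includes B cells, 8 members were called in labelled subcutaneous fat at day 42 in place of 0, and 2 at day 60 in place of 5. The share of all genes called in that fit is not given. Rps15 then had a change of 0.081 (limma, adjusted p = 0.00092). In labelled perigonadal fat the mean of the subunit members had r = 0.65 and rho = 0.46 with the T cell score over 75 arrays, and r = 0.56 without the 2 most extreme arrays. It had r = 0.55 and rho = 0.47 in labelled perirenal fat over 80 arrays, and r = 0.46 without the 2 most extreme. The neuron score had r = 0.57 and rho = 0.53 in labelled perirenal fat. In labelled mesenteric fat r with the T cell score was 0.11 and rho 0.10 over 79 arrays. Other scores ran with the members there, with r = -0.63 and rho = -0.42 for neuron markers. For epididymis and testis markers r was 0.61 and rho 0.24, and for pancreas markers r was -0.57 and rho -0.52. The members also moved together among themselves. Over the 18 subunit members above the percentile 90 of all probe sets, the median pairwise r after removing day and letter was 0.92 in labelled subcutaneous, 0.75 in labelled perigonadal, 0.65 in labelled perirenal and 0.58 in labelled mesenteric fat, 0.48 in liver and 0.43 in hypothalamus. These points share arrays and their scaling.

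At day 60 labelled subcutaneous fat had called rises of Rpl7l1 (0.31), Rpl3 (0.27), Rps15a (0.19), Rps19bp1 (0.16) and Rpl36al (0.14). Rpl3 intensities there were 0.296, 0.343 and 0.404 in 6 mice at day 60, against 0.256, 0.292 and 0.377 in 12 mice at day 0. The Rpl3 call ended without the letter term (0.21, adjusted p = 0.17) and with the marker scores as covariates (0.18, adjusted p = 0.12). The bright subunit members had large estimates with wide errors, such as 0.17 ± 0.068 for Rpl8 (adjusted p = 0.10).

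In hypothalamus no member had a called change at any day, where limma called at most 2 of all 13179 genes. The absence of calls is therefore not a result about the members. The mean log2 of the subunit members had a median of 2.001 at day 0 and between 2.01 and 2.03 at the 7 later days. Rps27 intensities were 10.12, 11.33 and 11.99 at day 42, against 10.4, 11.3 and 11.5 at day 0, and the ranges overlapped almost wholly. At day 60 limma called 0 of 31 members and 2 of all 13179 genes. An unadjusted p under 0.05 was found for 12 of 31 members and 1281 of all genes. Of the members' estimates 29 of 31 were positive, against 53.4% over all genes. The members' median was 0.031, against 0.004 for all genes.

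Paralogs let a subunit protein be compared with a near relative on the same arrays. Rps27l resembles Rps27, a zinc finger protein of the small subunit, and in human cells is a target of p53. Rps27 intensities in labelled perigonadal fat were 12.46, 13.05 and 14.13 in 10 mice at day 42, against 11.6, 11.9 and 13.6 in 11 mice at day 0, a change of 0.13 ± 0.034 (limma, adjusted p = 0.0029). Rps27l intensities were 6.86, 7.07 and 7.46 at day 42, against 6.96, 7.24 and 7.43 at day 0, and its change of -0.027 was not called. All 10 day 42 mice were above the day 0 mean of their letter for Rps27 and 3 of 10 for Rps27l.

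The log2 ratio of Rps27 to Rps27l changed by 0.16 ± 0.031 in labelled perigonadal fat (permutation test within letters, adjusted p = 0.0023), 0.12 ± 0.035 in labelled mesenteric fat (adjusted p = 0.012, permutation test), 0.11 ± 0.035 in labelled perirenal fat (adjusted p = 0.014, permutation test) and 0.062 ± 0.015 in liver (adjusted p = 0.0051, permutation test). It changed by 0.071 ± 0.081 in labelled subcutaneous fat and 0.007 ± 0.021 in hypothalamus, neither past the threshold. These are 6 of 22 such two-sided tests over 4 pairs of genes, adjusted together and chosen after the values were seen. Rps27l itself was called lower at day 21 in labelled perigonadal fat (-0.042 ± 0.014, 10.3% of all genes lower) and at day 60 in labelled perirenal fat (-0.050 ± 0.017, 8.59% lower). The second call ended without the letter term and under quantile normalisation (adjusted p = 0.11 in both).

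**Figure D4:**
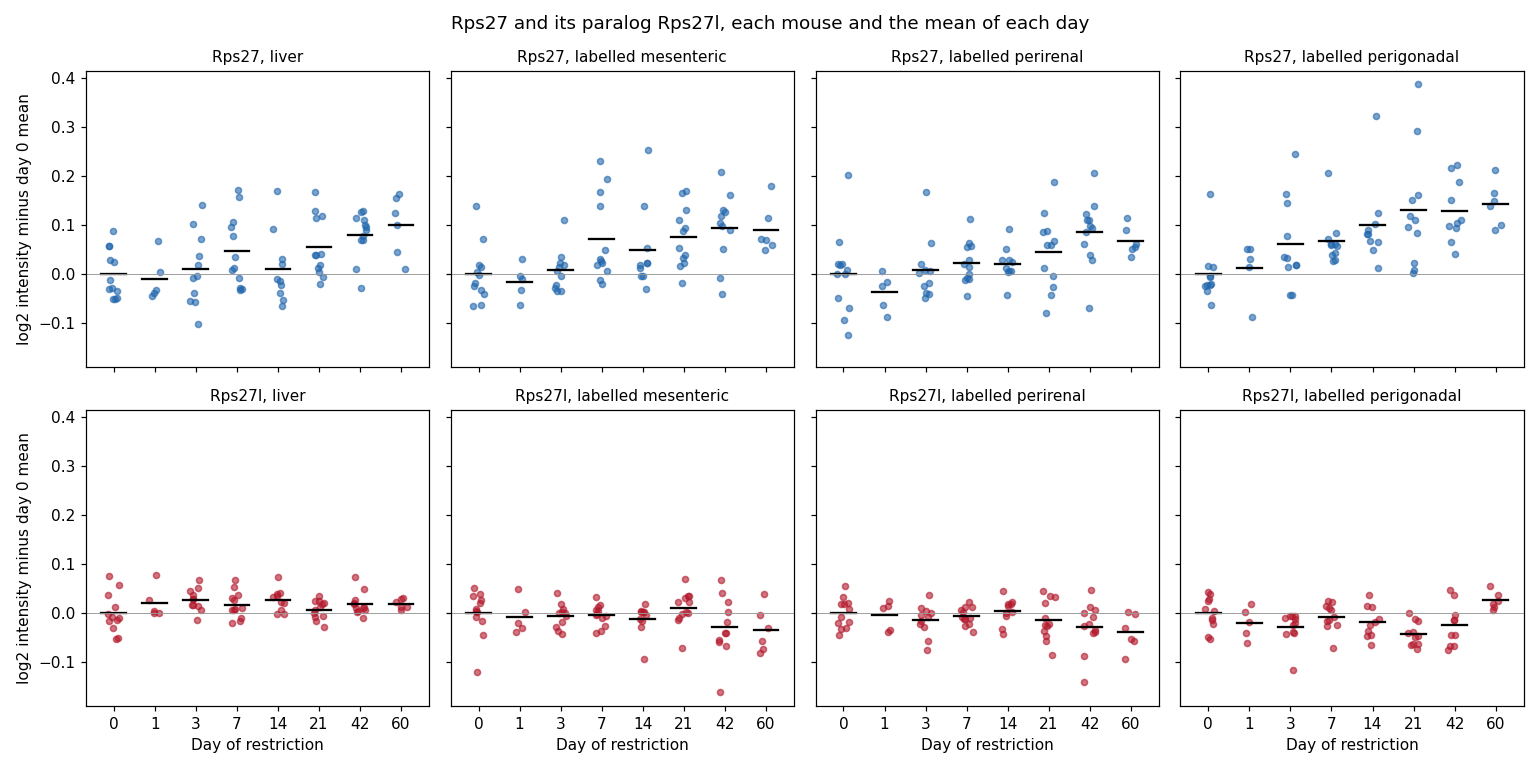
Log2 intensity minus the day 0 mean for Rps27 (upper panels) and Rps27l (lower panels) in each mouse by day of restriction, with a bar for each day's mean, in liver and 3 labelled depots. The day 42 bars of Rps27 lie above 0 in all 4 tissues, while those of Rps27l lie slightly below 0 in the 3 depots and slightly above it in liver.

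Rpl36al is an autosomal copy of the X-linked Rpl36a, and neither start window above holds a tract by the definition used. The log2 ratio of Rpl36a to Rpl36al rose by 0.084 ± 0.014 in labelled perigonadal fat (permutation test, adjusted p = 0.00088) and by 0.055 ± 0.016 in liver (permutation test, adjusted p = 0.011). The ratio changed by 0.049 in labelled mesenteric fat, 0.045 in labelled perirenal fat, -0.022 in labelled subcutaneous fat and -0.002 in hypothalamus, none past the threshold (permutation test, adjusted p = 0.052, 0.092, 0.38 and 0.88). Rpl36a itself rose in labelled perigonadal fat (0.090) and in liver (0.068), while Rpl36al was not called (0.009 and 0.012). The liver call of Rpl36a ended with the erythrocyte score as a covariate (0.055, adjusted p = 0.094). Messengers of near-identical copies can bind the same probe set, and probe sequences were not used here.

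Rpl22l1 is kept low by Rpl22 in mouse cells. In liver Rpl22l1 rose, with intensities of 4.45, 5.11 and 6.33 at day 42, against 3.99, 4.40 and 5.34 at day 0, a change of 0.18 ± 0.044, with all 12 mice above the day 0 mean of their letter. The call of Rpl22l1 ended with the erythrocyte score as a covariate (0.13, adjusted p = 0.096). In the 4 depots its estimates lay between -0.008 and -0.004. The log2 ratio of Rpl22 to Rpl22l1 rose by 0.098 ± 0.022 in labelled perigonadal fat (permutation test, adjusted p = 0.0023) and by 0.064 ± 0.023 in labelled subcutaneous fat (permutation test, adjusted p = 0.032). In liver it changed by -0.089 ± 0.045, which did not pass (permutation test, adjusted p = 0.11).

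Rpl7l1, a relative of Rpl7 that in human cells acts in building the large subunit, was called higher at day 60 in liver and in all 4 labelled depots. Its liver intensities were 2.94, 3.19 and 3.27 in 6 mice at day 60, against 2.30, 2.55 and 2.79 in 12 mice at day 0, a change of 0.28 ± 0.048 (limma, adjusted p = 6.74e-06). The ranges did not overlap. In labelled perigonadal fat they were 2.11, 2.24 and 2.54 at day 60, against 1.86, 1.91 and 2.03 at day 0, again without overlap, a change of 0.26 ± 0.044. The day 60 changes in labelled subcutaneous, mesenteric and perirenal fat were 0.31, 0.18 and 0.15, all called, and in hypothalamus 0.12 ± 0.037 (adjusted p = 0.28). All 6 day 60 mice lay above the day 0 mean of the N mice in each of the 6 tissues. For days 0, 1, 3, 7, 14, 21, 42 and 60 the liver median of Rpl7l1 was 2.55, 2.76, 2.66, 2.83, 2.78, 2.77, 2.75 and 3.19. With the mean of its 3 probe sets the call in labelled mesenteric fat at day 60 ended (0.031, adjusted p = 0.54), as did that in labelled perigonadal fat at day 42 (0.045, adjusted p = 0.26).

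Rpl3l, a muscle relative of Rpl3, and Rpl39l, a testis relative of Rpl39, varied widely between mice and were called in no tissue at day 42. The log2 ratio of Rpl3 to Rpl3l rose in liver by 0.25 ± 0.079 (permutation test, adjusted p = 0.014). The 2 probe sets stood at percentiles 46.3 and 28.8 there. The ratio changed by -0.36 ± 0.34 in labelled mesenteric, 0.033 ± 0.34 in labelled perirenal and -0.58 ± 0.53 in labelled perigonadal fat, none past the threshold. Rpl3l intensities in labelled perigonadal fat were 0.194, 0.504 and 1.77 at day 42, against 0.167, 0.204 and 0.983 at day 0, a change of 0.75 ± 0.45. Among the 44 labelled perigonadal arrays with a muscle score (mean log2 intensity of 14 markers) above 1, Rpl3l followed the score with r = 0.93 and rho = 0.97, and among the 31 arrays below 1 with r = 0.47 and rho = 0.40. In labelled mesenteric fat it ran with epididymis and testis markers, with r = 0.79 and rho = 0.81 in the 15 arrays with a score above -2 and r = 0.24 and rho = 0.16 in the other 64. Rpl39l intensity over all days had a median of 1.04 in labelled perigonadal fat, 0.114 in labelled mesenteric, 0.115 in labelled perirenal and 0.0925 in labelled subcutaneous fat, 0.0651 in liver and 0.0511 in hypothalamus. Value distributions differ between tissues, so this order is a description.

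**Figure D5:**
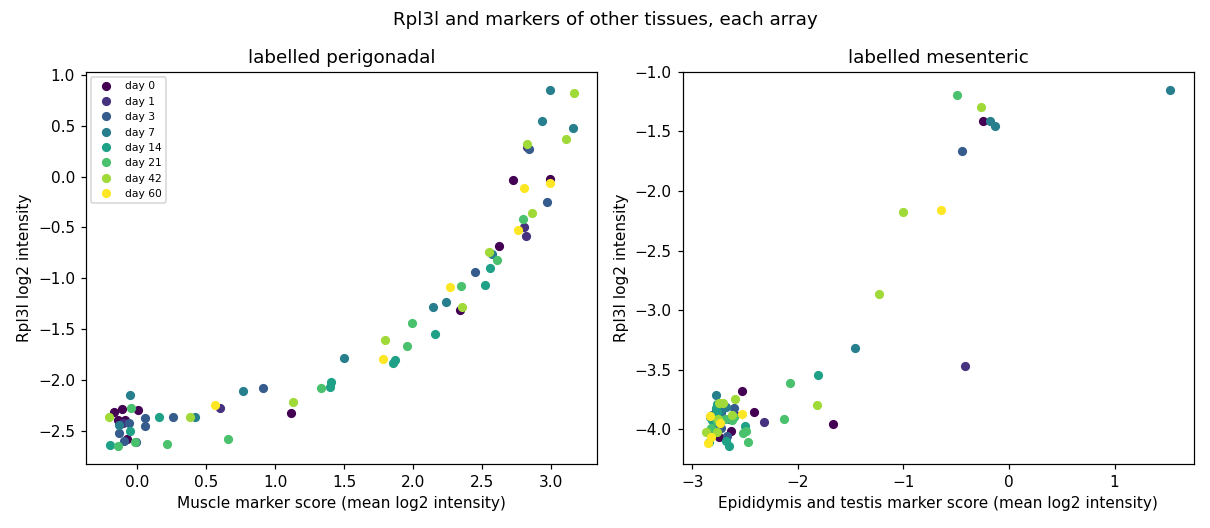
Rpl3l log2 intensity (vertical) against the mean log2 intensity of muscle markers in labelled perigonadal fat and of epididymis and testis markers in labelled mesenteric fat (horizontal), 1 point per array, coloured by day. Rpl3l climbs with the score in the 44 and 15 arrays with high scores and stays low in the others.

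Rps19bp1 rose late in liver, with intensities of 2.16, 2.20 and 2.32 in 6 mice at day 60, against 1.77, 1.93 and 1.98 in 12 mice at day 0, a change of 0.19 ± 0.036 (limma, adjusted p = 2.91e-05) without overlap of the ranges. It was not called there at day 42 (0.068, adjusted p = 0.076). Rpsa, a small subunit protein that is also known as a laminin receptor, was tested in 3 tissues and called in none, with day 42 estimates of 0.066 in hypothalamus, 0.007 in labelled perigonadal and -0.045 in labelled perirenal fat. Rpl5, which joins the large subunit with its smallest RNA and can bind Mdm2, had median intensities from 0.0187 in labelled mesenteric fat to 0.0371 in liver, under the limit for testing in each tissue.

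The day 42 changes of 2 tissues were compared for the 10 pairs among liver and the 4 depots. In labelled mesenteric fat 4 of 32 members had a lower change than in liver (11.4% of all genes lower), Rps18 at -0.26, Rpl22l1 at -0.18, Rpl14 at -0.085 and Rpl32 at -0.077. Labelled perirenal fat against liver gave 2 of 33, Rpl22l1 at -0.18 and Rps27l at -0.046 (6.92% of all genes lower), and labelled perigonadal fat against liver the same 2 genes of 32 at the same sizes (8.77% lower). These counts were near the share over all genes. With the animal as a replicate block 1 member in place of 2 was called for each of the last 2 pairs. For the other 7 pairs limma called 0 members, with 0 to 6 at an unadjusted p under 0.05.

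Other genes of the translation machinery were taken from lists drawn up by function. Their counts stand beside the day 42 shares of all genes, which were 8.08% higher and 13.2% lower in liver, 13.2% and 13.6% in labelled perigonadal, 15% and 17.2% in labelled mesenteric and 12.6% and 9.39% in labelled perirenal fat, and 4.03% in either direction in labelled subcutaneous fat. Ribosome biogenesis factors build and process the subunits, and at day 42 more of the 42 tested were called higher than lower in every tissue with calls: 25 against 0 in labelled perigonadal fat, 16 against 1 in labelled perirenal, 16 against 3 in labelled mesenteric and 5 against 0 in labelled subcutaneous fat, and 11 against 1 in liver. In labelled mesenteric fat Gnl3, a nucleolar GTPase, rose by 0.21 ± 0.037 and Dkc1, the pseudouridine synthase of ribosomal RNA, by 0.24 ± 0.053. In liver Bysl, which acts in small subunit assembly, rose by 0.23 ± 0.039 and Ltv1, which acts in the same process, by 0.16. Ubtf, which activates transcription of ribosomal DNA, fell in liver by 0.093 on the log2 scale.

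Of 14 other TOP messengers tested, 8 were higher and 1 lower in labelled perigonadal fat, 5 and 1 in liver, 4 and 0 in labelled perirenal fat and 0 in both directions in labelled mesenteric and subcutaneous fat. Eef2, the translocase of elongation, rose by 0.078 in labelled perigonadal fat, Hnrnpa1 by 0.17, and Fau, which encodes a small subunit protein fused to a ubiquitin-like one, by 0.053 in liver. Of 25 initiation factors 9 were higher and 1 lower in liver, 7 and 0 in labelled perigonadal fat, 4 and 2 in labelled mesenteric and 3 and 1 in labelled perirenal fat. The initiation factors called higher were 36% of the list in liver and 28% in labelled perigonadal fat, while the 16% in labelled mesenteric and 12% in labelled perirenal fat were near the shares of all genes. Eif2s2 rose in liver by 0.091 ± 0.015.

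The 76 mitochondrial ribosomal proteins, which serve a separate ribosome, had calls in both directions. In liver 5 were higher and 10 lower, in labelled mesenteric fat 10 and 15, in labelled perigonadal fat 8 and 11, in labelled perirenal fat 6 and 4 and in labelled subcutaneous fat 3 and 1. In liver these were 6.58% higher and 13.2% lower and in labelled mesenteric fat 13.2% and 19.7%, near the shares of all genes. In labelled subcutaneous fat 60 of 76 estimates were positive, with a median of 0.035 against 0.006 for all genes, and no difference from the cytosolic members was tested. Mrps6 fell by 0.19 in labelled mesenteric fat and Mrps15 rose by 0.17. Of 22 regulators of translation 3 were higher and 4 lower in liver, 5 and 2 in labelled mesenteric, 3 and 2 in labelled perirenal and 4 and 3 in labelled perigonadal fat, and 0 were called in labelled subcutaneous fat. Mtor, the kinase that drives TOP translation, fell in liver by 0.20 on the log2 scale and Eif4ebp1, a repressor of initiation under its control, by 0.14, while Atf4 rose by 0.18. Deptor, an inhibitor of Mtor, fell in labelled mesenteric, perirenal and perigonadal fat by 0.21, 0.17 and 0.11. In hypothalamus limma called 0 genes of these 5 lists at day 42.

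Letter N was also compared with letter J over all days. In hypothalamus 12 of 31 members were lower in N than in J mice (7.99% of all genes lower), by up to 0.092 for Rpl22, and 1 was higher, Rps15a (11% higher). Labelled mesenteric fat had 14 of 32 lower (12.6%) and 1 higher, Rpl3 (17.5%). In labelled subcutaneous fat 9 of 31 were lower (3.19%), and in labelled perigonadal fat 3 of 33 were higher (0.751%). In liver 5 of 32 were higher (9.91%) and 3 lower (4.89%), and in labelled perirenal fat limma called 0 of 33, with 5 at an unadjusted p under 0.05 (0.0587% of all genes called in either direction). The sources used here do not say what the letter stands for.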

How the data were processed

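Arrays of 6 tissues from 80 mice were used. The authors deposited linear intensities per probe set, and the labels do not state their normalisation. The 32640 probe sets included 25508 with a gene symbol and 7132 without, and symbols were updated through a RefSeq table of GRCm38.p6. The brightest probe set stood for a gene, genes above the percentile 25 were kept, and log2 intensities were fitted per tissue with limma 3.58.1 in R 4.3.3 (day and letter as terms, trend and robust empirical Bayes, Benjamini-Hochberg over all genes tested). The fit was tested on simulated data. Scores given as mean log2 intensity and permutation tests (100000 draws) used Python 3.11.15 with scipy 1.17.1. Those scores held tested markers only. Scores used as covariates were averages of all listed markers on the array, each scaled over the arrays of the tissue. They included markers under the limit for testing. The number of arrays limits precision. Within a tissue p-values measure the spread between arrays of different mice, in which differences between mice and between arrays cannot be told apart. Fits over a pair of tissues treated both arrays of a mouse as independent, except where the animal was a replicate block.

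Members and lists were chosen with earlier results of these data known. Named genes were set members, the largest called changes at days 3, 42 and 60 with 1 sign in both letters, and the smallest adjusted p per companion list; members beyond these were named after their values were seen. Tissues share animals: same-animal residuals had a median r between 0.033 and 0.14. Alternatives changed the filter, probe set choice, scaling, letter, marker covariates, animals and arrays.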

Additional observations from a re-analysis of the deposited data

Results flagged for a closer look

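Of 37 groups of samples tested for an outlying sample, 3 had one, and chance gives about 1 in 20. Groups of more than 10 mice were not tested, among them liver at days 0 and 42 with 12 mice each. The mean log2 intensity of the subunit members was 2.26 in mouse J13 at day 14 in labelled mesenteric fat, where the next sample had 2.21. It was 2.02 in mouse N93 at day 14 in labelled perigonadal fat, where the next had 1.94. Rpl7l1 had an intensity of 2.67 in mouse N70 at day 42 in labelled perigonadal fat, where the next had 2.25.

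Day 42 changes differed between tissues for 8 pairs of gene and contrast by limma. The labelled mesenteric change minus the liver change was -0.26 for Rps18 (adjusted p = 0.0079), -0.18 for Rpl22l1 (adjusted p = 0.0038), -0.085 for Rpl14 (adjusted p = 0.038) and -0.077 for Rpl32 (adjusted p = 0.048). The labelled perirenal change minus the liver change was -0.18 for Rpl22l1 (adjusted p = 0.0065) and -0.046 for Rps27l (adjusted p = 0.049). The labelled perigonadal change minus the liver change was -0.18 for Rpl22l1 (adjusted p = 0.0096) and -0.046 for Rps27l (adjusted p = 0.047).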

How the results depend on the processing

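Over 864 comparisons of named genes under the alternatives, 781 kept their direction and side of the threshold, 77 lost the call, 5 gained one and 1 reversed, Rpl22 in liver at day 42 (-0.027, adjusted p = 0.35, mean of probe sets). Counts of called members stayed within 1.5 times in 487 of 578 comparisons, and the others follow, with depots by label. In J mice alone the F test called 1 in liver, 0 in mesenteric, 6 in perigonadal, 0 in perirenal and 0 in subcutaneous fat. For days 1, 7, 14, 21 and 42 and for day 42 against day 3 the same mice gave liver counts of 0, 0, 1, 0, 12 and 0. Mesenteric counts were 0 at day 21, 2 at day 42 and 0 against day 3, perirenal 3 and 0 for those last contrasts, and perigonadal 1, 3, 0 and 2 for days 3, 7, 14 and 21 and 0 for day 42 against day 3. In N mice alone the F test called 8 in liver, 4 in mesenteric, 9 in perigonadal and 0 in perirenal fat. Their liver counts were 0, 1, 0 and 7 for days 7, 14, 21 and 42 and 3 against day 3, mesenteric 4 at day 21, 5 at day 42 and 3 against day 3, perirenal 0 at day 42, 0 against day 3 and 2 at day 60, and perigonadal 0, 2, 0 and 2 for days 14, 21, 42 and 60 and 2 against day 3. Fewer mice enter each of these fits.

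With the marker scores as covariates the F test called 8 in liver and 4 in subcutaneous fat. Liver had 1, 1 and 5 for days 3, 21 and 42 and 0 against day 3, subcutaneous fat 2 at day 21, 8 at day 42, 1 against day 3 and 2 at day 60, perirenal fat 4 at day 21, 0 for day 42 against day 3 and 10 at day 60, perigonadal fat 2 at day 7 and 9 at day 14, and mesenteric fat 3 for day 42 against day 3. With the erythrocyte score alone liver had 9 by the F test, 1, 4 and 7 for days 3, 21 and 42 and 0 against day 3. Median centring gave 3 by the F test and 1 for day 42 against day 3 in perirenal fat, 1 at day 3 and 17 at day 14 in liver, and 0 at day 14 and 5 at day 60 in perigonadal fat. Quantile normalisation gave 3 in mesenteric fat at day 21, 16 in liver for day 42 against day 3 and 1 in perigonadal fat at day 7. Without the letter term subcutaneous fat had 2 by the F test and 3 at day 60, liver 0 at day 1, 15 for day 42 against day 3 and 1 for day 60 against day 42, and perigonadal fat 1 at day 14 and 16 at day 60. The mean of probe sets gave 1 in liver at day 3 and 1 in perigonadal fat at day 7, and no filter gave 1 in perigonadal fat at day 14. Without arrays that stand apart perigonadal fat had 1 at day 7, 4 at day 14 and 6 at day 21. Leaving out 1 day 1 mouse gave 0 to 2 in liver. With the animal as a replicate block, 1 member differed between perirenal fat and liver, 1 between perigonadal fat and liver and 1 between mesenteric and subcutaneous fat, and the other 7 pairs kept their counts. The cause of these shifts was not tested, and the shares of all genes called under the alternatives are not given beside them. The single liver scores, the omission of arrays that stand apart and the paralog ratio test were chosen after seeing the data.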
